A study of Mus musculus with 20 samples.

Results

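The levels of 10 genes of fast skeletal muscle were followed, array by array, in messenger RNA of the mouse aorta, the artery that leaves the heart and whose own muscle is smooth muscle. The 10 genes are Acta1, Tnnt3, Tnni2 and Tnnc2 of the thin filament, Myh4 and Mylpf of the thick filament, Actn3 of the Z disc, and Ckm, Atp2a1 and Pvalb of energy supply and calcium handling. They were chosen by name, with no cut on brightness, from the 18193 genes that the Affymetrix Mouse Genome 430 2.0 array measures with at least 1 probe set annotated to a single gene symbol. Earlier results of these data were known when the 10 were chosen. A gene with several such probe sets was read from the brightest. The series asked how the aorta responds when the nuclear receptor PPARγ, a regulator of lipid metabolism genes, is activated by a drug or impaired by a mutation. It holds 20 arrays in 7 groups, each array hybridized with RNA pooled from 8 aortas. Adult C57BL/6J mice ate standard chow, the vehicle, without drug (3 arrays), or chow with the PPARγ agonist rosiglitazone at 3 mg/kg/day for 2 days (3 arrays) or 14 days (3 arrays), or at 10 mg/kg/day for 2 days (3 arrays) or 14 days (2 arrays). Adult P465L mice carried a dominant-negative PPARγ mutation knocked into the gene's own locus (3 arrays) and were set against their wild-type littermates (3 arrays), both on standard chow. The knock-in alters PPARγ in every tissue that expresses it, and neither its zygosity, nor its strain background, nor the sex of the mice is stated in the labels. A replicate is thus a pool of aortas and is called by its letter, A, B or C.

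Skeletal muscle contracts when myosin heads of the thick filament pull on actin of the thin filament. Troponin C, troponin I and troponin T form the calcium switch on the thin filament, the sarcoplasmic reticulum pump returns the calcium, and creatine kinase rebuilds the ATP that is spent. Fast fibres use their own isoforms of most of these proteins, and vascular smooth muscle uses other actin and myosin genes and no troponin switch.

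The labelled tissue was checked first. All 10 smooth muscle markers on the list (among them Acta2, Myh11 and Tagln) were above the 50th percentile of all probe sets, and their summed signal ranged from 427604 to 590715 over the 20 arrays, a 1.38-fold range. The 10 skeletal muscle genes summed to between 2328 and 86823, a 37.29-fold range, and made up from 0.0022% to 0.0814% of the summed signal of an array. Over all probe sets the 50th percentile of the mean log2(signal + 72) was 8.73, which 9 of the 10 genes reached, and Myh4 was the exception at 8.68. Signals were scaled by the authors to a common mean on each array, whose medians ranged from 321.3 to 450.7. The mRNA of Pparg, which a point mutation need not alter, averaged 2169.3 ± 1108.6 in P465L aortas and 2132.1 ± 552.7 in wild-type aortas (SD, n = 3 each), a log2 fold change of -0.07 (limma, adjusted p = 0.992), so its level does not check the genotype.

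The sequence before the start of a gene is shown for 5 of the 10 genes because these share a letter motif. RefSeq promoters on GRCm38.p6 were matched for 7 of the 10 genes and hold 250 bases before each listed start. They were searched on both strands for the E-box CAGCTG, a site of the kind that muscle regulatory factors bind, for TATAAA, and for the MEF2 box and the CArG box, the motifs of the MEF2 and SRF families. Of the 8 promoters listed for the 7 matched genes, 5 held the E-box, against 13% of all 32851 promoters of that length. The 5 were those of Acta1, Atp2a1, Ckm, Myh4 and Mylpf. A MEF2 box was in 2 of the 8, those of Myh4 and Pvalb, against 2.92% of all promoters. The CArG box and TATAAA were each in 2 of the 8, those of Acta1 and Myh4, against 1.47% and 12.37% of all promoters. In Myh4 a TATAAA on the opposite strand lies inside the MEF2 box. The Tnnc2 window held none of the 4 motifs, and Pvalb had a second listed promoter that held none. Capitals mark these motifs in the sequences below, written 5′ to 3′ on the gene's strand. The Mylpf window lies within that gene's listed span.
Acta1, chr8:123894776-123895025, minus strand: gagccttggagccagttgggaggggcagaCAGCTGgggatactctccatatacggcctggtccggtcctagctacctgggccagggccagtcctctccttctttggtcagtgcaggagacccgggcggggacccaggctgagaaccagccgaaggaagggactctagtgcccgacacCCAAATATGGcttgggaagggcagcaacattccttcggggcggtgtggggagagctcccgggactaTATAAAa
Myh4, chr11:67237562-67237811, plus strand: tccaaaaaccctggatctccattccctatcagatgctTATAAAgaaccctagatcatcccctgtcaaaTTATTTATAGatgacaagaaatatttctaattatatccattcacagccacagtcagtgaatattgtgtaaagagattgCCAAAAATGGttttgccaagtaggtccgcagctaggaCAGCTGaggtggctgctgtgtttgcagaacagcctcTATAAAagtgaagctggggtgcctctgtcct
Mylpf, chr7:127211358-127211607, plus strand: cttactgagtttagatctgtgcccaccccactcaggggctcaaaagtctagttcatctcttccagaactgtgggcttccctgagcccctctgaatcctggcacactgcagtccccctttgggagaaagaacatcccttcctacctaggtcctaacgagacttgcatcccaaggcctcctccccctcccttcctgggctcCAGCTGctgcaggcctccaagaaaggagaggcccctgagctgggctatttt
Ckm, chr7:19410844-19411093, plus strand: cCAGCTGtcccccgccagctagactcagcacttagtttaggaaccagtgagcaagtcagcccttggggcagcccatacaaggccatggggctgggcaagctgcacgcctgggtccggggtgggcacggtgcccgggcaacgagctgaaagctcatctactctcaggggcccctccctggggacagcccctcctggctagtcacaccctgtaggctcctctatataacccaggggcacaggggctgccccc
Atp2a1, chr7:126463074-126463323, minus strand: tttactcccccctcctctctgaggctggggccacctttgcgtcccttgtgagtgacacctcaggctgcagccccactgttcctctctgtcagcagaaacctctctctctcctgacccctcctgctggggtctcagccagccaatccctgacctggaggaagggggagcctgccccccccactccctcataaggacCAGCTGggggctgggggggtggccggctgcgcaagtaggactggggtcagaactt
The presence of these letters is a description and says nothing of binding in the aorta. On chromosome 7 lie 5 of the 10 genes, where Tnni2 and Tnnt3 are 54360 bases apart, and the 10 genes lie on 6 chromosomes in all.

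High levels of the 10 genes fell on particular pools, in several of the labelled groups. Wild-type array B was the highest of the 20 arrays for 10 of 10 genes. P465L array A was among the 3 highest for all of them, and chow array C was among the 4 highest for all 10. Array B of rosiglitazone at 10 mg/kg/day for 2 days was among the 4 highest for 8. These arrays were singled out after their values were seen, and they belong to 4 groups. At the other end, array B of the 14-day group at 10 mg/kg/day had a median rank of 19 of 20 over the 10 genes, and chow array A and P465L array C each had 17.

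**Figure D1:**
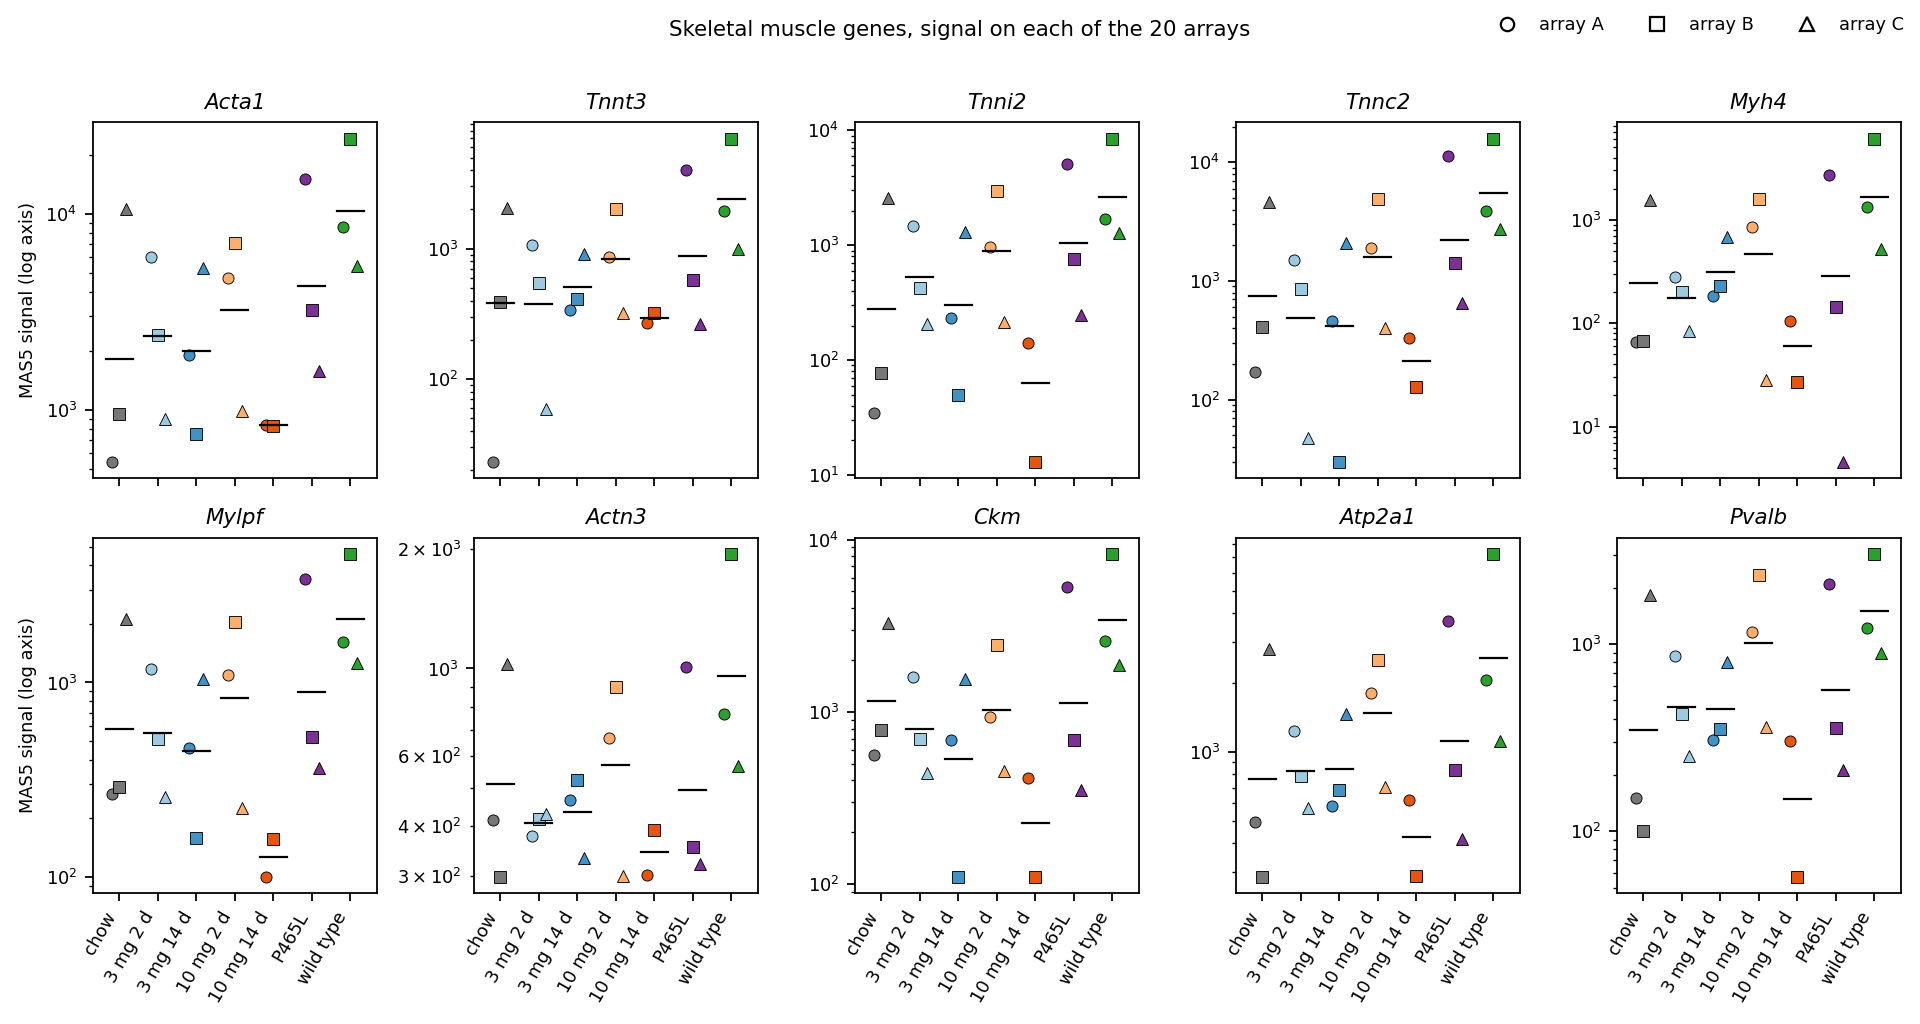
MAS5 signal (log axis) of each of the 10 skeletal muscle genes on each of the 20 arrays, by group, with circles, squares and triangles for arrays A, B and C and a black bar for the group mean taken on the log2(signal + 72) scale. Wild-type array B is the highest point in all 10 panels, and within most groups 1 array stands well above its fellows in panel after panel.

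Acta1 encodes skeletal muscle alpha-actin, the thin filament protein itself, and its probe set was above the median of its own array on all 20 arrays. Its signal was 15197, 3244 and 1582 on the 3 P465L arrays A, B and C, and 8551, 24315 and 5423 on the wild-type arrays. In the rosiglitazone experiment it was 543, 954 and 10595 on the chow arrays, 6045, 2403 and 891 at 3 mg for 2 days, 1892, 753 and 5308 at 3 mg for 14 days, 4730.2, 7140.0 and 982 at 10 mg for 2 days, and 836 and 829 at 10 mg for 14 days. Only the last group, with 2 arrays, had replicates that lay close together, and P465L and wild-type arrays overlapped, as did chow arrays and the arrays of each rosiglitazone group. From the lowest array to the highest the range was 39.6-fold on the scale of signal plus 72, the offset used to steady dim signals.

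The troponin genes Tnnt3, Tnni2 and Tnnc2 encode the fast isoforms of troponin T, which anchors the complex to tropomyosin, troponin I, which blocks the myosin sites, and troponin C, which binds calcium. Tnnc2 was 11218, 1424 and 654 on P465L arrays and 3859, 15867 and 2732 on wild-type arrays. On chow it was 172, 410.2 and 4653, and with rosiglitazone it was 1504, 859 and 47.8 at 3 mg for 2 days, 457, 30.1 and 2104 at 3 mg for 14 days, 1887, 4932 and 403 at 10 mg for 2 days, and 329 and 128 at 10 mg for 14 days. On the scale of signal plus the offset, Tnnc2 had the widest range of the 10 genes, 156.1-fold. That range lay between wild-type array B and array B of 3 mg for 14 days. The arrays of each group overlapped those of its control. Tnni2 ran through a 100.6-fold range on the scale of signal plus the offset. Its signal was 5064, 764 and 248 in P465L and 1686, 8488 and 1279 in wild-type aortas. Its values on chow were 34.7, 77.8 and 2600.1, and they were 1483, 424 and 208 at 3 mg for 2 days, 234, 49.6 and 1315 at 3 mg for 14 days, 965, 2975 and 216 at 10 mg for 2 days, and 142 and 13.1 at 10 mg for 14 days. A group could thus hold both near-background and bright arrays, chow being the clearest case with chow array C far above arrays A and B. Tnnt3 showed the same layout, with 4006, 571 and 263 on P465L arrays and 1951, 6984 and 1000.5 on wild-type arrays. Chow arrays had 23.3, 387 and 2036 for Tnnt3, the 3 mg arrays had 1058, 547 and 59.4 at 2 days and 339, 412 and 903 at 14 days, and the 10 mg arrays had 858, 2009.8 and 319.8 at 2 days and 270.1 and 324 at 14 days. Its range was 74.0-fold on the scale of signal plus the offset.

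Myh4 and Mylpf belong to the thick filament. Myh4 encodes myosin heavy chain 2B, the heavy chain of the fastest fibres, and Mylpf the fast regulatory light chain. Myh4 was above the median of its own array on 8 of 20 arrays, the fewest of the 10 genes. Its signal was 2718, 144 and 4.6 on P465L arrays and 1316, 6096 and 526 on wild-type arrays, and the lowest value of all was that of P465L array C. On chow it was 65.5, 67.6 and 1556, at 3 mg 281, 202 and 83.9 for 2 days and 182, 229 and 679.8 for 14 days, and at 10 mg 860.1, 1596 and 28.4 for 2 days and 106 and 27.0 for 14 days. Only array C of the chow group had a clear Myh4 signal, and the chow range enclosed every array at 3 mg. Mylpf was 3404, 522 and 365 in P465L and 1615, 4585 and 1261 in wild-type aortas. With chow it was 267, 292 and 2112, with 3 mg 1169, 510.4 and 257 at 2 days and 462, 158 and 1038 at 14 days, and with 10 mg 1089, 2058 and 226 at 2 days and 100.2 and 157 at 14 days. Both Mylpf arrays at 10 mg for 14 days were below the lowest chow array.

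Actn3 encodes the alpha-actinin that ties fast-fibre thin filaments to the Z disc. It varied least of the 10, over a 5.4-fold range on the scale of signal plus the offset. Its signal was 1007, 355 and 320.5 on P465L arrays and 767, 1945 and 569 on wild-type arrays. It was 414, 298 and 1027 on chow, 378, 417 and 429.7 at 3 mg for 2 days, 466, 522 and 333 at 3 mg for 14 days, 668, 898 and 300.1 at 10 mg for 2 days, and 302 and 392 at 10 mg for 14 days. No array fell below 298.4, wild-type array B was the highest, and P465L and wild-type arrays overlapped, as did chow and each rosiglitazone group.

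Ckm encodes the muscle creatine kinase, Atp2a1 the calcium pump SERCA1 of the fast-fibre sarcoplasmic reticulum, and Pvalb parvalbumin, a cytosolic calcium buffer of fast fibres. Ckm was 5270.1, 687 and 349 on P465L arrays and 2562, 8258 and 1865 on wild-type arrays. Under chow it was 561, 783 and 3296, and under rosiglitazone 1601, 698 and 442 at 3 mg for 2 days, 686, 110.3 and 1547 at 3 mg for 14 days, 936, 2435 and 454 at 10 mg for 2 days, and 415 and 110.5 at 10 mg for 14 days. Like Mylpf, Ckm was below every chow array on both arrays at 10 mg for 14 days, while array B of 3 mg for 14 days was as low. Atp2a1 was 3708, 838 and 418 in P465L and 2054, 7253 and 1111 in wild-type aortas. Its chow values were 494, 287 and 2808, its 3 mg values 1235, 786 and 568 at 2 days and 579.6, 686 and 1467 at 14 days, and its 10 mg values 1808, 2506 and 702 at 2 days and 618 and 289.6 at 14 days. Atp2a1 was above its own array's median on 18 of 20 arrays, and its groups overlapped in both experiments. Pvalb was 2083, 354 and 213 on P465L arrays and 1214, 3032 and 893 on wild-type arrays. On chow Pvalb was 150.0, 100.5 and 1830.1, at 3 mg 866, 425 and 252 for 2 days and 306, 351 and 806 for 14 days, and at 10 mg 1156, 2339 and 360.5 for 2 days and 303 and 57.1 for 14 days. For Pvalb the second highest array was array B of 10 mg for 2 days and not P465L array A.

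On the scale of signal plus 72 the range from the lowest to the highest array had a median of 42.7-fold over the 10 genes. Within groups, the SD of log2(signal + 72) was 0.64 for Actn3 and between 1.13 and 1.88 for the other genes, with a median of 1.42 over the 10. The median over all 18193 genes was 0.27, and the 10 genes stood at or above the 93.5th percentile of that spread. They were chosen with earlier results of these data known, so this standing is a description. Of each gene's total sum of squares over the 20 arrays, between 55.5% and 66.0% lay within groups, with a median of 60.2%. The corresponding median over all genes was 59.5%, and 68.4% would lie within groups on average if no group differed. The share that lay within groups was close to that of genes at large.

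The genes varied together. The mean of the 10, each centred on its own mean over the 20 arrays, was 2.29, -0.23 and -1.10 on P465L arrays A, B and C, and 1.30, 3.02 and 0.69 on the wild-type arrays. It was -1.62, -1.26 and 1.66 on chow, 0.50, -0.35 and -1.41 at 3 mg for 2 days, -0.69, -1.41 and 0.58 at 3 mg for 14 days, 0.63, 1.58 and -1.09 at 10 mg for 2 days, and -1.24 and -1.85 at 10 mg for 14 days. In order of group mean, wild type came first at 1.67 ± 1.21, then 10 mg for 2 days at 0.38 ± 1.35, P465L at 0.32 ± 1.76, chow at -0.41 ± 1.80, 3 mg for 2 days at -0.42 ± 0.96, 3 mg for 14 days at -0.51 ± 1.01 (SD, n = 3 each), and 10 mg for 14 days at -1.55 ± 0.43 (SD, n = 2). Each step between neighbours in this order was smaller than the SD of arrays pooled over the groups, 1.34. Sorting brings neighbours close, so these steps do not test whether groups differ. The letters have no order, and no letter marked the highest array in all groups. That array was A in P465L, at 3 mg for 2 days and at 10 mg for 14 days. It was B in wild type and at 10 mg for 2 days, and C in chow and at 3 mg for 14 days. The lowest array was C in P465L, wild type and both 2-day groups, A in chow, and B in both 14-day groups.

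**Figure D2:**
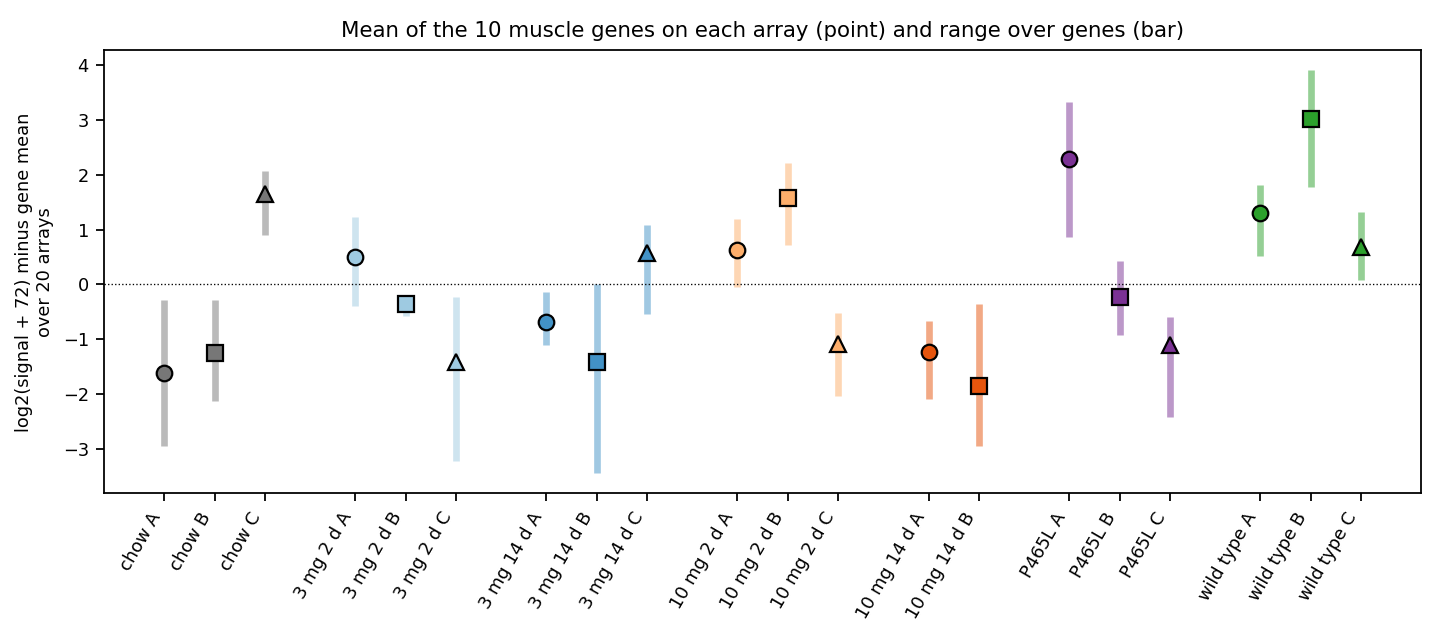
Mean of the 10 skeletal muscle genes on each array (points) with the range from the lowest to the highest gene (bars), as log2(signal + 72) minus each gene's mean over the 20 arrays, by group. The 3 chow arrays alone span from -1.62 to 1.66, and the wild-type arrays from 0.69 to 3.02.

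Over the 45 pairs of genes, Pearson's r across the 20 arrays ranged from 0.73 to 0.98 with a median of 0.91, and Spearman's rho from 0.61 to 0.98 with a median of 0.90. All pairs share the same pools and the same array scaling. The genes were also chosen with earlier results of these data known, so these values are a description. The highest pairs were Acta1 with Tnni2 and Acta1 with Mylpf, both at 0.98, and Atp2a1 with Pvalb at 0.97. The lowest was Tnnc2 with Actn3, at 0.73. Without wild-type array B and P465L array A, the 2 arrays highest in most of the genes, r ranged from 0.56 to 0.98 with a median of 0.86 over the 18 arrays left. For deviations from the group means, which hold no difference between groups, it ranged from 0.61 to 0.98 with a median of 0.90.

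The 10 genes shared a direction but not a size. The slope of each gene on the mean of the other 9 was 1.44 for Tnnc2, 1.37 for Tnni2, 1.20 for Myh4, 1.10 for Acta1 and 1.0 for Tnnt3. It was 0.96 for Ckm, 0.94 for Mylpf, 0.86 for Pvalb, 0.76 for Atp2a1 and 0.36 for Actn3. Slopes under 1 mean that the log2 value of a gene moved less than that of its fellows, and the residual SD around the lines was between 0.33 and 0.68.

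A further 4 probe sets carried the symbol of a member and were not used. The second-brightest Tnni2 probe set followed the one used with an r of 0.88, and reached 2726.6 on wild-type array B. The dimmest Tnni2 probe set had an r of 0.11 and never exceeded 176.4. The dimmer Myh4 probe set had an r of 0.61 and was highest on wild-type array B at 660.0, and the dimmer Ckm probe set had an r of 0.09 and a highest signal of 528.2. Of the 14 probe sets of the 10 genes, 12 were highest on wild-type array B.

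P465L aortas were set against wild-type littermates to ask what impaired PPARγ changes. In the limma model none of the 10 genes was called at an adjusted p under 0.05, where 0.0165% of all 18193 genes were called. The 10 log2 fold changes were all negative, from -2.26 for Myh4 to -0.86 for Actn3, with a median of -1.29 against -0.01 over all genes. Acta1 had a log2 fold change of -1.26 with an SE of 0.99 and a 95% interval from -3.33 to 0.80 (limma, adjusted p = 0.862). Myh4 had -2.26 with an SE of 1.18 and an interval from -4.72 to 0.19 (limma, adjusted p = 0.796). The unadjusted p was not under 0.05 for any of the 10, against 6.37% of all genes. No gene had arrays of P465L and wild type that did not overlap, against 13% of all genes. Because the 10 genes varied together across pools, their shared sign is not a set of independent observations. Brown fat markers lay the same way, 8 of 11 negative with a median of -0.85 and Elovl3, a fatty acid elongase, called lower, with a summed signal of 41291 to 138106 on P465L arrays and 95919 to 196882 on wild-type arrays. Of the smooth muscle markers 8 of 10 were negative, with a median of -0.21. The part of either list in the values of the 10 genes was not tested. The median of the 10 moved to -2.28 without P465L array A, to -0.63 without wild-type array B and to -0.60 without P465L array C, and it was -1.62 without both P465L array A and wild-type array B. In RNA of whole aortas, fewer cells of a type and less RNA per cell cannot be told apart.

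Rosiglitazone was set against chow to ask what activated PPARγ changes. Averaged over the 4 rosiglitazone groups, the 10 genes had a median log2 fold change of -0.04 against 0.02 over all genes, with 5 positive and 5 negative. They ranged from -0.92 ± 0.71 for Ckm to 0.28 ± 0.67 for Pvalb (estimate ± SE, 11 treated and 3 chow arrays). None was called, against 0.176% of all genes, and the lowest adjusted p was 0.69, of Ckm. By unadjusted p none of the 10 was under 0.05, against 11.3% of all genes. Leaving out chow array C turned the median to 1.02, and leaving out chow array A gave -0.74, so the sign rested on which chow pools were in the fit. The 4 rosiglitazone groups share these chow arrays. Brown fat markers were positive for 10 of 11 in the same average, with a median of 0.82 and none called.

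At 3 mg for 2 days none of the 10 was called, against 0% of all genes, and the median was -0.03, between -0.55 for Tnnc2 and 0.78 for Tnni2. At 3 mg for 14 days none was called, again against 0%, and the median was 0.11, between -1.01 for Ckm and 0.36 for Tnnt3. For 10 mg for 2 days none was called, against 0.214% of all genes, and the median was 0.85, with 9 of 10 positive, Ckm at -0.15 and Tnni2 highest at 1.47 with an SE of 1.19 (limma, adjusted p = 0.672). Here Pvalb had the lowest adjusted p, 0.533, with a log2 fold change of 1.38 and an SE of 0.83. By unadjusted p none of the 10 was under 0.05 in these 3 groups, against 7.48%, 8.04% and 11.9% of all genes at 3 mg for 2 days, 3 mg for 14 days and 10 mg for 2 days. Leaving out 1 chow array turned the sign at 3 mg: the median ran from -0.49 without chow array B to 0.91 without chow array C at 2 days, and from -0.73 without chow array A to 1.20 without chow array C at 14 days. For 10 mg for 2 days the median was 2.01 without chow array C and 0.08 without chow array A.

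After 14 days at 10 mg all 10 log2 fold changes were negative, with a median of -1.15, and none was called, against 0% of all genes. Ckm averaged 262.7 ± 215.2 (n = 2) at 10 mg for 14 days and 1546.7 ± 1518.9 (n = 3) on chow (SD), a log2 fold change of -2.04 with an SE of 1.0 and a 95% interval from -4.12 to 0.05 (limma, adjusted p = 0.529). Mylpf averaged 128.8 ± 40.4 (n = 2) at 10 mg for 14 days and 889.9 ± 1058.0 (n = 3) on chow (SD), a log2 fold change of -1.70 with an SE of 0.94 (limma, adjusted p = 0.592). Ckm and Mylpf were the 2 genes whose arrays did not overlap between these groups, both lower at 10 mg for 14 days, where 15.2% of all genes did so in that direction. By unadjusted p none of the 10 was under 0.05, against 9.73%. In the same comparison 10 of 11 brown fat markers and 9 of 10 cardiac markers were positive, with medians of 0.93 and 0.59. The mean of the cardiac markers, centred per gene, was 1.26 on array A and 0.12 on array B at 10 mg for 14 days. On chow arrays that mean ran from -0.22 to 0.39. Of the smooth muscle markers 9 of 10 were negative, with a median of -0.15. The median of the 10 skeletal muscle genes was 0.03 without chow array C and -1.86 without chow array A.

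**Figure D3:**
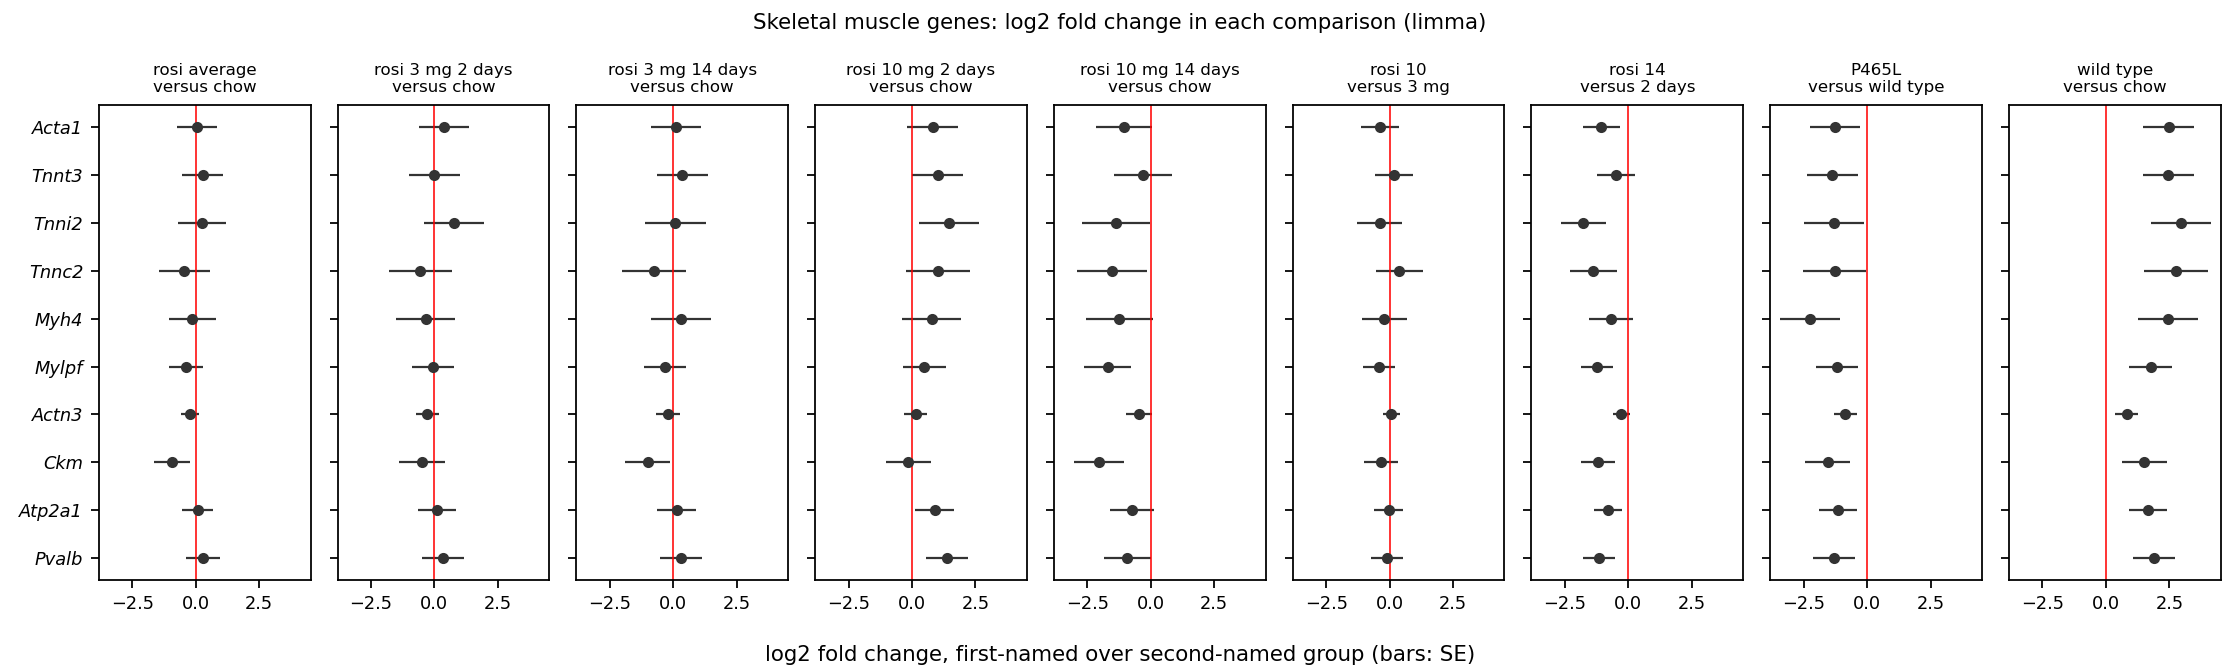
Log2 fold change (x axis, points, with bars of 1 SE) of each of the 10 genes in the 9 comparisons, first-named over second-named group, with the red line at 0. Genes of a panel lie on the same side in P465L against wild type, with a median of -1.29, and in wild type against chow, with a median of 2.18. They also do so in 10 mg for 14 days against chow, with a median of -1.15, and in 14 against 2 days, with -1.12. No point passed the adjusted threshold.

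Dose and time gave no call either. For 10 against 3 mg, both times together, the median was -0.16 with 3 genes positive and 7 negative, and 0 of 10 were called against 0% of all genes, or were under an unadjusted 0.05 against 9.83%. That median was -0.50 without array B and 0.22 without array C of 10 mg for 2 days, so its sign turned with 1 array. For 14 against 2 days, both doses together, the median was -1.12 with all 10 negative, and 0 of 10 were called against 0% of all genes, or were under an unadjusted 0.05 against 4.62%. In that comparison Tnni2 had the lowest value, -1.77 with an SE of 0.89, and Mylpf had -1.23 with an SE of 0.63 (limma, adjusted p = 0.998 for both). The change from 2 to 14 days was more negative at 10 mg than at 3 mg for all 10, but the test of that difference (the interaction of dose and time) gave adjusted p of 0.944 or above for every gene. As an example, Pvalb had an interaction of -2.27 with an SE of 1.25, from -2.30 at 10 mg and -0.04 at 3 mg.

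Untreated wild-type littermates and chow controls both ate chow without drug, so neither a drug nor the mutation separates them. All 10 log2 fold changes were positive, with a median of 2.18 against -0.03 over all genes, the median farthest from 0 of the 9 comparisons. Tnni2 was at 2.96 with an SE of 1.19 (limma, adjusted p = 0.201), Acta1 at 2.47 with an SE of 0.99 (limma, adjusted p = 0.197), and Actn3 lowest at 0.82 with an SE of 0.46 (limma, adjusted p = 0.396). None of the 10 was called, against 2.98% of all genes. By unadjusted p, 7 of 10 were under 0.05 (Acta1, Atp2a1, Mylpf, Pvalb, Tnnc2, Tnni2 and Tnnt3), against 16.3% of all genes. The 10 genes varied together across pools, so neither their shared sign nor these 7 are independent observations. For each of the 10 the chow and wild-type arrays overlapped, since chow array C lay within the wild-type range, and 21.7% of all genes did not overlap there. Leaving out chow array C gave a median of 3.29, leaving out chow array A gave 1.42, and leaving out wild-type array B gave 1.47. Brown fat markers were positive for 10 of 11 in the same comparison, with a median of 0.99, Elovl3 called higher and Ucp1, the brown fat uncoupling protein, at 1.68 with an SE of 0.47 (limma, adjusted p = 0.0557). Their summed signal was 95919 to 196882 on wild-type arrays and 42047 to 87234 on chow arrays, and their part in the values of the 10 genes was not tested. These groups come from separate experiments, so genotype background, cohort and handling cannot be told apart.

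The other skeletal muscle genes on the list moved with the 10 only in part. Of 39 such genes 37 were measured, 26 of them were highest on wild-type array B, and the median r with the mean of the 10 was 0.64. The 50th percentile of all probe sets was reached by 19 of the 37. The part of dim signals in that r was not tested. Myl1, the fast essential light chain, had 10576, 2127 and 833 on P465L arrays and 4952, 17175 and 3161 on wild-type arrays. Mb, the oxygen store myoglobin, had 6623, 1016 and 271 on P465L arrays and 1952, 8810 and 1485 on wild-type arrays. Both thus repeated the order of the 10 genes within these groups. By contrast Casq1, the calcium store protein of the reticulum, ranged only from 5687 to 10654 with an r of 0.29, Tcap, the titin cap, from 8646 to 24580 with an r of 0.43, and Ldb3, a Z disc protein, from 8579 to 13513 with an r of -0.18. Pygm, the muscle glycogen phosphorylase, lay between these patterns, from 1410.5 to 3101 with an r of 0.55. None of the 37 was called in any of the 9 comparisons, and the lowest adjusted p was 0.0968, in wild type against chow. In P465L against wild type 31 of 37 were negative with a median of -0.50, and in wild type against chow 32 of 37 were positive with a median of 0.62.

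Slow muscle genes followed less closely, with 7 of 12 highest on wild-type array B and a median r of 0.32. The 50th percentile was reached by 5 of the 12, and the part of dim signals in that r was not tested. Myh7, the slow myosin heavy chain, reached 1684 on wild-type array B and 733.9 on P465L array A, and its median over all arrays was 195.0. Among the 12 slow muscle genes Myh7 alone had an r over 0.7, at 0.72. Atp2a2, the pump of slow and smooth muscle, ranged only from 37041 to 51744. None of the 9 genes of developing muscle and satellite cells was above the 50th percentile. Cdh15, the brightest of the 9, reached 631.6 with a median of 283.2. Pax7 and Myod1, the factors that mark satellite cells and muscle commitment, reached at most 203.0 and 330.3.

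Markers of other tissues followed the 10 genes across the 20 arrays to different degrees. For cardiac muscle the median r was -0.03, no marker was highest on wild-type array B, and the summed signal was 8641 and 19783 at 10 mg for 14 days against 7411 to 11193 on chow. The high array there was A, with Myh6, the atrial and adult ventricular heavy chain of the mouse, at 2548 and Myl7, the atrial light chain, at 2843, and the 10 skeletal genes were low on it with a mean of -1.24. Brown fat markers had a median r of 0.14 over the 20 arrays, although they shared the sign of the 10 genes in P465L against wild type and in wild type against chow. Of 6 red blood cell markers 3 were measured, with a median r of 0.47, above the 0.32 of the slow muscle genes. Of the 3, Alas2 and Slc4a1 were highest on wild-type array B, with r of 0.48 and 0.47 but a Spearman's rho of 0.26 each. The third, the globin gene Hba-a1, was below the 50th percentile. It went the other way, with an r of -0.48 and its lowest signal, 9.3, on wild-type array B. The summed signal of the 3 was 37669 to 43369 on P465L arrays, 101902 on wild-type array B, and 36460 and 48526 on the other wild-type arrays. Alas2, the haem synthesis enzyme of red cells, had 91611 on wild-type array B and at most 46743 on the other 19 arrays. The part of these markers in the level of the 10 genes was not tested.

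**Figure D4:**
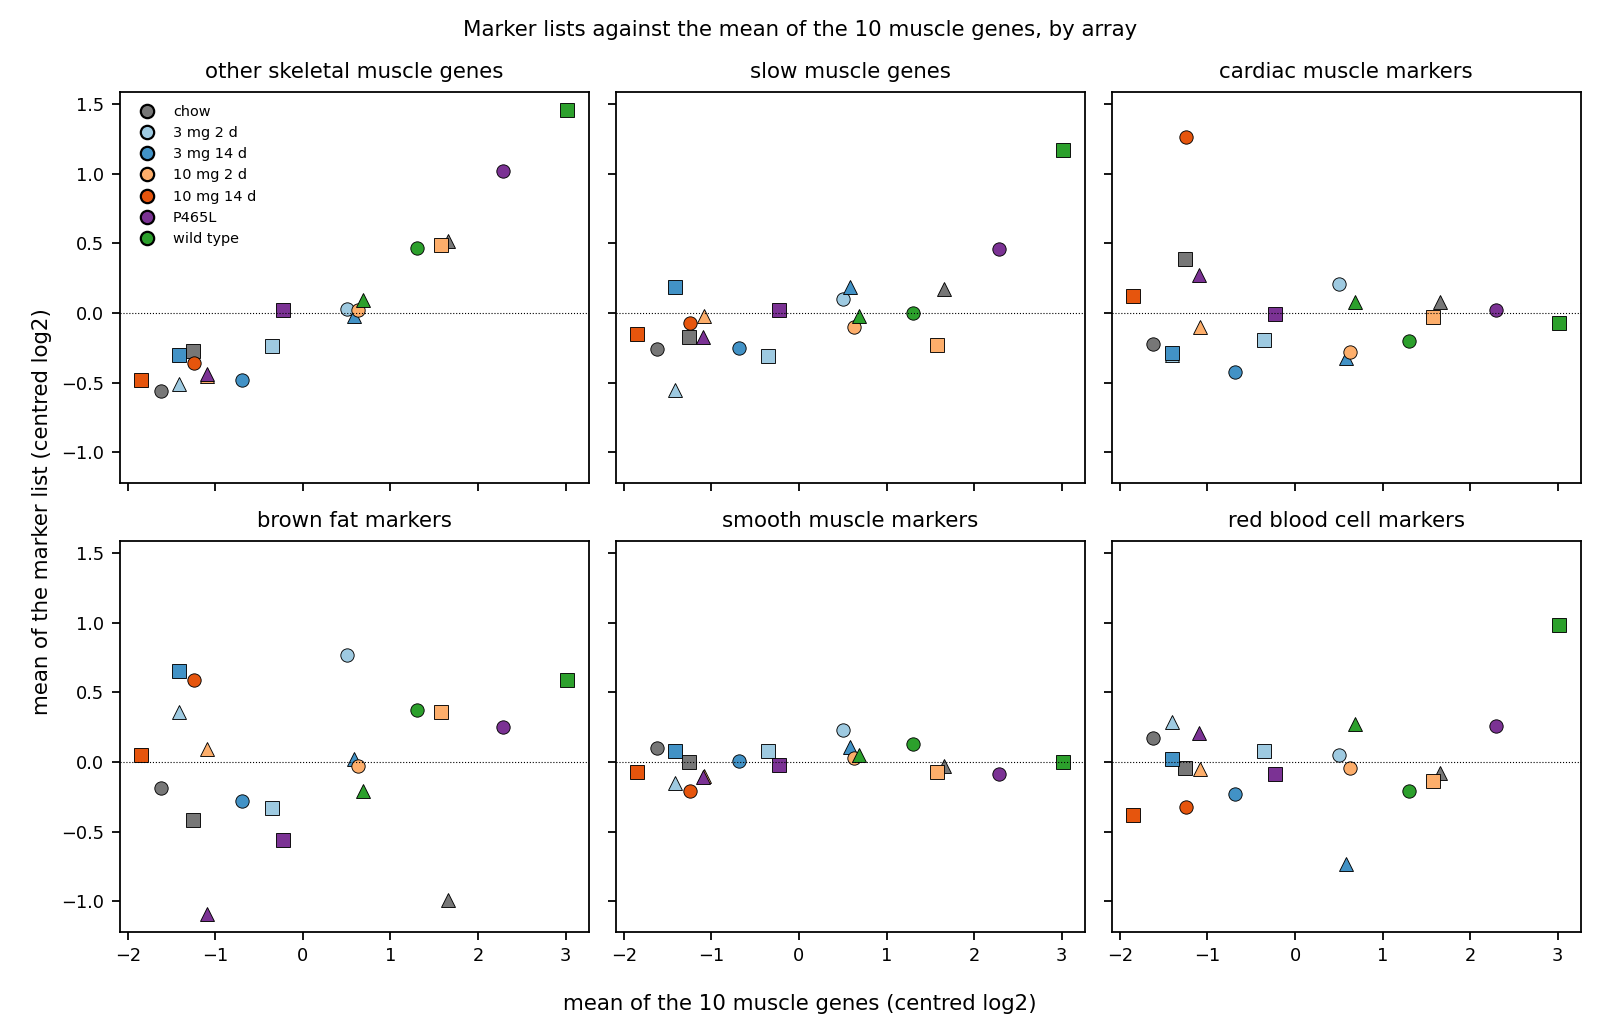
Mean of 6 marker lists (y axis) against the mean of the 10 skeletal muscle genes (x axis) on each of the 20 arrays, both as log2(signal + 72) centred per gene, coloured by group, with circles, squares and triangles for arrays A, B and C. The other skeletal muscle genes climb with the 10, smooth muscle markers stay between -0.21 and 0.23, and the highest cardiac point, 1.26, is an array at 10 mg for 14 days.

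Among the 11067 other genes above the 50th percentile, the 10 whose level was most like the mean of the 10 genes over the 20 arrays were Myh1 with an r of 0.954, Ttn with 0.943, Ckmt2 with 0.911, Eno3 with 0.90, Myl1 with 0.899, Cox6a2 with 0.851, Mybpc2 with 0.835, Mb with 0.827, Slc25a4 with 0.799 and Myoz1 with 0.783. The median r over all these genes was -0.03, and 12 had an r over 0.7. The list of other skeletal muscle genes held 8 of these 10, and Ckmt2, the mitochondrial creatine kinase of striated muscle, and Slc25a4, a mitochondrial ADP/ATP carrier, were on no list. Myh1, the 2X heavy chain of fast fibres, ran from 37.4 to 11356, and Ttn, the giant spring titin, from 45.2 to 5531. On wild-type array B 9 of these 10 were highest, and Slc25a4 was highest on P465L array A, within a narrow range from 35904 to 43780.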

How the data were processed

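Messenger RNA was measured in mouse aortas on 20 arrays, each of RNA pooled from 8 aortas. The deposited intensity values are MAS5 signals per probe set made by the authors, with MAS5 named in the submitters' processing notes (version and detection calls: not given in the sources used here). By the values, the trimmed mean of every array (2% of probe sets dropped at each end) is 1500. Of 45101 probe sets, 34945 had 1 symbol, for 18193 genes, 932 had several, 9160 had none and 64 were controls, and the brightest probe set stood for its gene. Symbols were checked through the Entrez ID (34741 found, 0 changed). Signals were used as log2(signal + 72), 72 being near the 20th percentile of all values. Dim MAS5 signals are noisy, so the offset pulls low values together and fold changes of dim genes are understated.

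All genes were fitted without a filter in limma 3.58.1 (R 4.3.3), with a mean per group over the 20 arrays (13 residual and 6.8 prior degrees of freedom, variance trend). Tests were two-sided, with Benjamini-Hochberg adjustment over all 18193 genes and calls under 0.05, and 9 comparisons were made. The fit was tested on simulated data. Precision is limited by the number of arrays, and p-values measure spread between pools. The array letters do not pair pools: deviations from group means of 57 same-letter array pairs had a median r of 0.008 (from -0.140 to 0.123). Sequences are from RefSeq (GRCm38.p6). Python 3.11.15, numpy 2.4.6, pandas 2.3.3, scipy 1.17.1 and matplotlib 3.10.9 were used. The 10 genes, the marker lists and the tests were chosen with earlier results of these data known. By rule the text could name all 10 genes, list genes that were called or are among a list's 5 brightest, and the 10 genes most like the 10 by Pearson's r. Not every gene among a list's 5 brightest is named. Myh7, Myh6 and Pax7 fall outside that rule. These genes and Myod1 were named after their values were seen. Alternatives were another offset (16 or 200), a filter at the 50th percentile, the mean of all probe sets of a gene, quantile normalization, no variance trend, array weights, the arrays of 1 experiment, the array letter as a replicate block and leaving out each array.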

Additional observations from a re-analysis of the deposited data

How the results depend on the processing

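No member was called in any of the 9 comparisons under any alternative, so the counts of 0 did not depend on the processing. With the array letter as a replicate block the count was 0 in each comparison, and the median log2 fold change of the 10 genes was -1.29 for P465L against wild type, 2.18 for wild type against chow, -0.09 for the rosiglitazone average and -1.31 for 10 mg for 14 days. Over the alternatives other than leaving out arrays, the median ranged from -1.44 to -1.17 for P465L against wild type, from 1.73 to 2.37 for wild type against chow, from -0.12 to 0.06 for the rosiglitazone average, from -0.12 to 0.05 and from 0.00 to 0.27 for 3 mg at 2 and 14 days, from 0.55 to 0.91 and from -1.36 to -0.75 for 10 mg at 2 and 14 days, from -0.37 to 0.00 for dose and from -1.24 to -0.74 for time. Leaving out 1 array moved it more: from -2.28 to -0.60 for P465L, from 1.42 to 3.29 for wild type against chow, from -0.74 to 1.02 for the average, from -0.49 to 0.91 and from -0.73 to 1.20 for 3 mg at 2 and 14 days, from 0.08 to 2.01 and from -1.86 to 0.03 for 10 mg at 2 and 14 days, from -0.50 to 0.22 for dose and from -1.47 to -0.75 for time. Chow array C gave the highest value and chow array A or B the lowest in each comparison with chow. Leaving out both wild-type array B and P465L array A was chosen after the data were seen. The median r of gene pairs was 0.87 to 0.93 under the 2 offsets, the mean of probe sets and quantile normalization, all 10 genes stayed highest on wild-type array B, and 8 to 10 of the 10 most alike genes were shared. Myh4 and the lowest signals of the troponin genes lie near background, where the offset sets the size of a log2 difference.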

Other observations

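Elovl3, a fatty acid elongase prominent in brown fat, was called in both comparisons that hold the wild-type littermates. Its log2 fold change was -2.35 with an SE of 0.34 for P465L against wild type (limma, adjusted p = 0.0181) and 1.34 with an SE of 0.34 for wild type against chow (limma, adjusted p = 0.0367). These comparisons share the wild-type arrays. Pecam1, an adhesion molecule of endothelial cells, was lower with rosiglitazone averaged over dose and time, at -0.57 with an SE of 0.10 (limma, adjusted p = 0.0284), while none of the 10 skeletal muscle genes was called there. Of the 8 endothelial markers on the list, 3 were positive and 5 negative in that average, with a median of -0.13. Pecam1 was the only 1 called.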
